A study of Mus musculus with 14 samples.

Results

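Plasma cells and memory B cells are both products of a B cell response to antigen, and here their transcripts were set against each other. The 4 arrays titled as plasma cells and the 4 titled as memory B cells, 8 of the 14 arrays of the series, were selected by their titles, and 18193 genes were compared between them. Plasma cells were spleen cells of male C57Bl/Ka mice, 5 to 9 weeks old, 7 days after immunization with NP-CGG in alum, a hapten coupled to a carrier protein. Their gate took cells that were low for B220 and IgM and positive for the lambda light chain, for syndecan-1 and for binding of NP-PE, and negative for PNA. Memory B cells were spleen cells of mice of the same strain and sex, 14 to 18 weeks old, 10 to 12 weeks after NP-CGG in alum. Their gate took B220-positive, lambda-positive cells that bound NP-PE, were high for CD38, and lacked IgM, IgD and PNA. Both gates excluded myeloid, red and T lineage cells through CD11b, Gr-1, Ter119, CD3, CD4, CD8 and CD5. The dose was 100 µg for all these arrays except plasma replicate 1, whose label gives none and is the only one of these 8 to state a double sort. Naive B cells (3 arrays) came from unimmunized mice 4 to 8 weeks old, and germinal center B cells (3 arrays) from mice 6 to 10 weeks old, 14 days after 100 µg NP-CGG in alum, all male C57Bl/Ka. These 6 arrays entered only the estimate of the spread and, where named, a description of levels.

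A plasma cell is the end stage of B cell differentiation and is built to make and export antibody, which needs a large endoplasmic reticulum (ER). Its program is switched on by the transcription factors Irf4, Prdm1 and Xbp1, of which Prdm1 also represses genes of the B cell stage. A memory B cell keeps the antigen receptor, antigen presentation and the B cell transcription factors, and rests until antigen returns. Antibody-secreting cells arise from dividing precursors, the plasmablasts.

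The sorted cells' RNA was amplified and biotin-labelled for Affymetrix arrays, and each value is a linear, normalized intensity of 1 probe set. An intensity is relative to the other transcripts on the same array, so it does not give RNA per cell, and in sorted pools fewer cells of a type and less RNA per cell cannot be told apart. Differences are plasma minus memory on the log2 scale, with the standard error of the fit, and the threshold for a call was 0.05 for the adjusted p (limma, Benjamini-Hochberg over 18193 genes). Per-array values are given in the order of replicates 1 to 4. A gene counted as above background where it exceeded the brightest of 27 unspiked bacterial controls on that array, which lay between 10.96 and 16.1 over the 14 arrays. Where the lower subset was above it on no array, the fold is written as "at least". Whether replicates are separate animals is not stated, and p-values therefore reflect spread among these samples alone, part of which may be technical. Age and time after immunization differ between the subsets on every array, so their part in any difference cannot be told apart from that of the cell type.

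Correlations between arrays were 0.980 to 0.992 within plasma, 0.978 to 0.988 within memory and 0.870 to 0.898 between them, and component 1 of the 8 arrays held 84.1% of the variance. On component 2, with 4.6% of the variance, plasma arrays 1 and 4 lay apart from plasma arrays 2 and 3. For beta-actin, the signal near the 3' end over that in the middle of the transcript, a sign of how far copies extend, was 6.27 ± 0.72 in plasma and 4.63 ± 0.50 in memory (SD, n = 4 each). The ranges did not overlap (exact permutation test, two-sided, p = 0.0286, the smallest that 70 permutations allow). The ratio for GAPDH ran the other way, at 6.91 ± 1.23 in plasma and 12.0 ± 0.96 in memory (p = 0.0286, exact). With the actin ratio as a covariate 5761 genes were called, 3000 of them higher.

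The labels were checked against defining markers. All 8 plasma cell markers were called higher in plasma, with a median of 5.40, and all 8 measured memory or B cell markers were called lower, with a median of -2.01 (-1.82 with genes below background in plasma at their bound). Syndecan-1 (Sdc1) and B220 (Ptprc) were used in the gates, so their differences describe the sort. IgM (Ighm) was also in both gates, low for plasma and lacking for memory, but its transcript was bright in both subsets. Sdc1 was 3436, 1965, 2575 and 2866 on the plasma arrays, against 6.37, 7.91, 7.39 and 49.9 on the memory arrays. The plasma arrays were all far above the memory arrays, but memory array 4 stood above the other memory arrays. Jchain, which links IgM and IgA into polymers, showed the same array apart, with 14630, 10767, 13195 and 13439 on the plasma arrays, against 37.6, 28.5, 86.3 and 489 on the memory arrays. Without memory array 4 the difference for Jchain was 8.16 in place of 7.30, and Sdc1, then above background on no memory array, was at least 207-fold higher in plasma. The transcripts of Cd79a, a chain of the antigen receptor, gave little signal in either subset, with 14.5, 11.6, 14.9 and 13 on the plasma arrays, against 26.3, 32.1, 16.4 and 25.9 on the memory arrays. Its call as a memory marker therefore rests on values close to background.

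In all, 6035 of 18193 genes (33.2%) were called. Plasma cells were higher for 3131 genes (17.2%) and lower for 2904 genes (16%), and 3596 calls were at least 2-fold. For 5514 of the called genes (91.4%) the plasma and memory arrays did not overlap. At 16-fold or more, 127 genes were higher and 143 lower in plasma. Above background on all 4 plasma arrays and no memory array were 97 genes, all of them called, and 144 genes showed the opposite, of which 136 were called. The median difference was 0.08 over all genes and -0.08 over 6116 bright genes, so smaller differences lie within that shift.

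**Figure D1:**
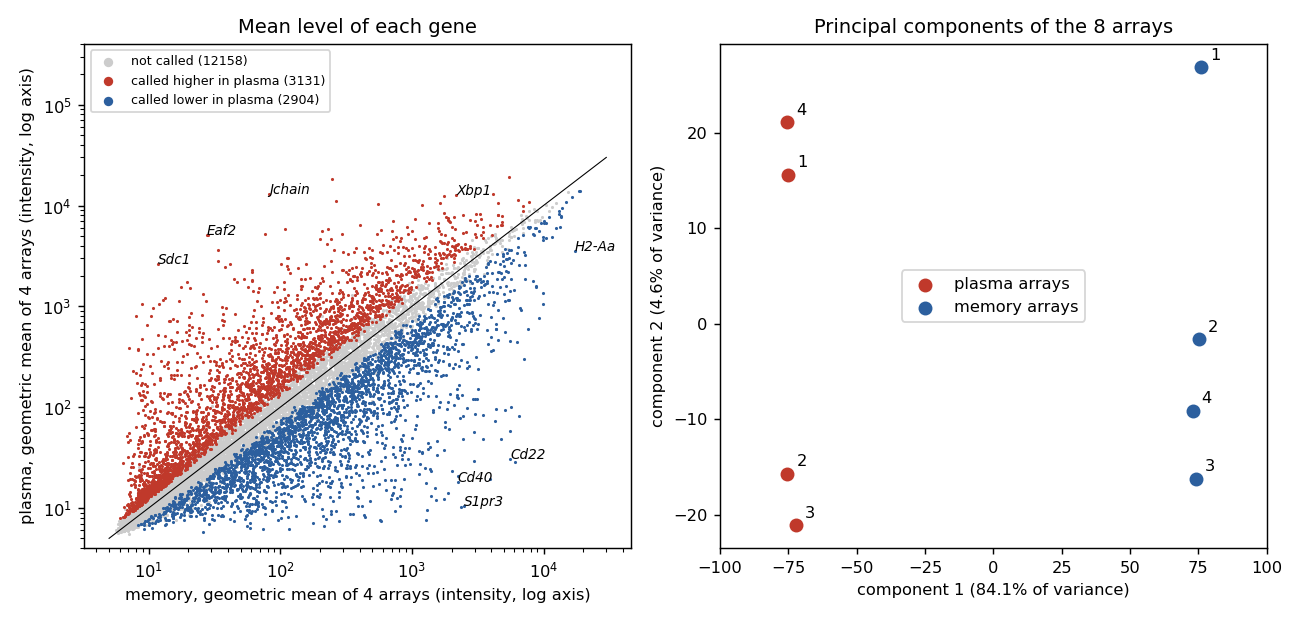
Left, each point is 1 of 18193 genes, with its geometric mean intensity on 4 plasma arrays (vertical, log axis) against that on 4 memory arrays (horizontal, log axis). The 3131 genes called higher and the 2904 called lower lie on either side of the line of equal level. Right, the 8 arrays on components 1 and 2, numbered by replicate, where component 1 (84.1% of the variance) parts all plasma arrays from all memory arrays.

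Most regulators of the plasma cell stage were higher in plasma. Of 21 plasma cell regulators and markers measured, 19 were called higher and 1 lower, with a median of 2.96. Prdm1, the repressor of the B cell program, was 575, 486, 617 and 426 on the plasma arrays, against 14.6, 25.4, 17.9 and 25.1 on the memory arrays (4.69 ± 0.20, adjusted p = 2.89e-10). Xbp1, the activator of secretory genes, was already bright in memory cells, with 14084, 10557, 13394 and 13477 on the plasma arrays, against 2388, 2211, 1862 and 2279 on the memory arrays (2.56 ± 0.25, adjusted p = 1.85e-06). Irf4, which acts upstream of Prdm1, was 3632, 2838, 4112 and 2998 on the plasma arrays, against 479, 524, 705 and 693 on the memory arrays (2.50 ± 0.29, adjusted p = 7.52e-06). None of these 3 overlapped between the subsets, and Prdm1 differed by more than Xbp1 or Irf4 on the log2 scale. Bhlha15 (Mist1), a factor of secretory cells, was 1029, 1011, 1109 and 1872 on the plasma arrays, against 12.7, 13.5, 10.5 and 17.6 on the memory arrays, with plasma array 4 the highest. Its memory values lay at or near background on every array, and the difference was 6.51 ± 0.21, adjusted p = 3.42e-11. Cd28, a costimulatory receptor known on T cells and plasma cells, was above background on no memory array and at least 65.3-fold higher in plasma (adjusted p = 2.35e-12). The ER-bound transcription factor Creb3l2 differed by 5.22 ± 0.28 and Slamf7, a surface receptor of plasma cells, by 3.71 ± 0.25.

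The exception in that list was Zbtb20, a transcription factor known to act in long-lived plasma cells, with 183, 131, 172 and 145 on the plasma arrays, against 999.9, 1514, 1365 and 1066 on the memory arrays (-2.96 ± 0.34, adjusted p = 8.34e-06). Every plasma array lay below every memory array, and the naive mean, 57.5, lay below both. Tnfrsf17 (BCMA), the survival receptor of plasma cells, was dim, with 33.7, 17.2, 21.7 and 16.5 on the plasma arrays, against 10.1, 8.402, 8.75 and 7.65 on the memory arrays. It was called, but the bound on the fold was only at least 1.73, and the call was lost with a floor of 16. The chemokine receptor Cxcr3, also of this list, was not called, with 331, 314, 296 and 421 on the plasma arrays, against 176, 673, 185 and 188 on the memory arrays. Memory array 2 alone lay above all plasma arrays for Cxcr3, and without it the gene was called, at 0.88 (adjusted p = 0.00245).

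**Figure D2:**
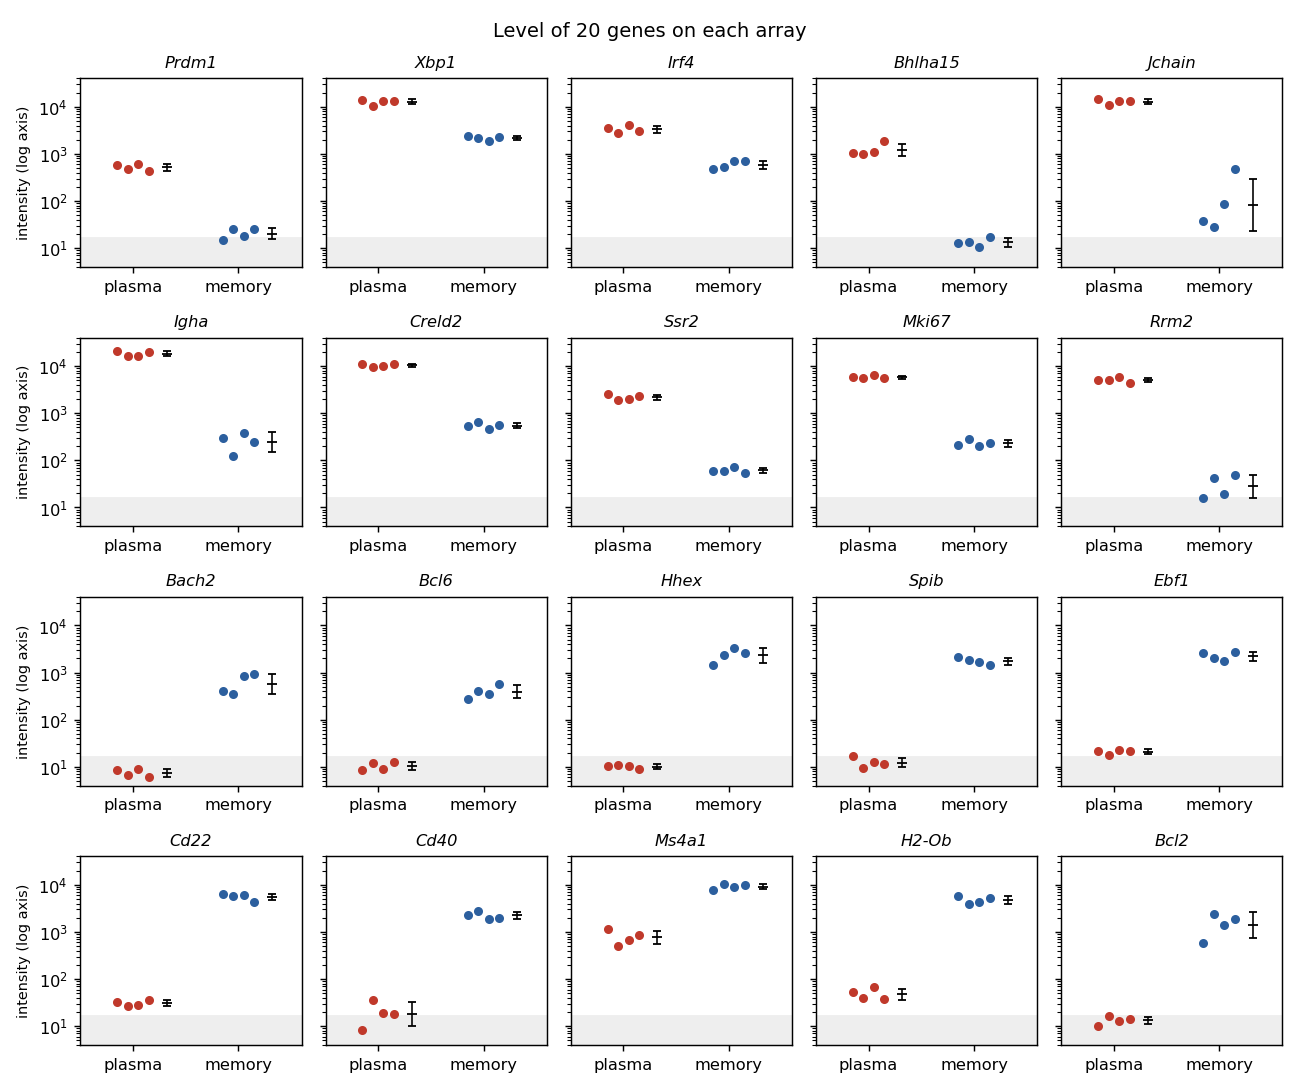
Intensity (log axis) of 20 genes on each of 4 plasma arrays (left) and 4 memory arrays (right); black marks give the geometric mean and 1 SD of the log2 values, and the grey band reaches up to the highest background, 16.1. The subsets do not overlap for any of these genes, and for Jchain the spread among memory arrays, 28.5 to 489, is the widest shown.

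All 4 immunoglobulin constant region and J chain genes measured were called higher, with a median of 5.81. IgA (Igha) was 21118, 16245, 16796 and 20252 on the plasma arrays, against 301, 126, 386 and 249 on the memory arrays (6.23 ± 0.27, adjusted p = 3.57e-10). IgG3 (Ighg3) was 13290, 8444, 9184 and 14106 on the plasma arrays, against 221, 305, 351 and 206 on the memory arrays (5.38 ± 0.23, adjusted p = 3.92e-10). For both genes all memory arrays lay far above the naive means of 16.2 and 14.9. A second Ighg3 probe set was called in the opposite direction (-3.62 ± 0.18, adjusted p = 2.55e-09), so the level of Ighg3 depends on the probe set read, and related constant regions can share sequence. The antibody chains most used in this response to NP, of the IgG1 class, were not analysed here. Ighm was 20585, 14594, 21776 and 20395 on the plasma arrays, against 3388, 4416, 5088 and 11706 on the memory arrays, with plasma array 2 the lowest of its group and memory array 4 the highest. Although the memory gate took cells lacking IgM, the memory mean of Ighm was 5464, against 7113.5 in naive and 7556.5 in germinal center cells. The cause was not tested.

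Of 25 genes for elongation and processing of antibody mRNA, 6 (24%) were called higher and 4 (16%) lower, with a median of 0.06. These shares are close to the 17.2% and 16% over all genes, so the list as a whole did not stand out. The 4 largest differences were Eaf2, Tent5c, Hnrnpll and Ell2. Eaf2, a partner of the elongation factor Ell2, was 5696, 4647, 4896 and 5115 on the plasma arrays, against 15.8, 38.03, 33.5 and 29.2 on the memory arrays (7.52 ± 0.31, adjusted p = 2.7e-10). Tent5c, which lengthens poly(A) tails of secretory mRNA, was 5933, 3950.3, 5886 and 5563 on the plasma arrays, against 42.7, 64.3, 78.5 and 157 on the memory arrays (6.11 ± 0.34, adjusted p = 4.52e-09). Hnrnpll, a splicing regulator of plasma cells, was at least 38.3-fold higher in plasma, and Ell2 differed by 2.96 ± 0.25. The 4 lower genes were Pabpc1, Cpsf3, Ell and Hnrnpf, at -1.07 to -0.42. The direction of Hnrnpf turned with another choice of probe set.

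The machinery that takes proteins into the ER and folds them was higher in plasma almost throughout. Of 22 genes for translocation and signal peptide removal, 22 were called higher, with a median of 2.38 and a range of 0.51 to 5.16. Ssr2, a subunit of the translocon-associated complex, was 2536, 1938, 2043 and 2279 on the plasma arrays, against 58.3, 59.2, 73.7 and 55.2 on the memory arrays (5.16 ± 0.14, adjusted p = 6.81e-12). Tram2, which assists translocation, was 1787, 1581, 2085 and 2149 on the plasma arrays, against 59.1, 38.5, 60.6 and 58.4 on the memory arrays (5.15 ± 0.21, adjusted p = 2.59e-10). The signal peptidase subunit Spcs1 differed by 3.55 ± 0.21, the signal recognition particle subunit Srp9 by 3.32 ± 0.26, and the channel subunit Sec61a1 by 1.81 ± 0.20. Of 30 N-linked glycosylation genes, 24 were higher and 2 lower, with a median of 2.07. The oligosaccharyltransferase subunits Ddost and Rpn2 differed by 4.45 ± 0.18 and 4.08 ± 0.27. The lower members were the mannosidase Man1a (-1.33 ± 0.22) and the catalytic subunit Stt3b (-1.16 ± 0.15), and neither held across probe sets. Man1a was not called with the mean of its probe sets (-0.17, adjusted p = 0.486), and Stt3b turned to 1.501 with the most variable probe set.

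Of 34 folding and disulfide bond genes, 30 were called higher and 1 lower, with a median of 2.60. Fkbp11, a prolyl isomerase of the secretory path, was 844, 651, 535 and 907 on the plasma arrays, against 12.9, 12.5, 18.5 and 14.7 on the memory arrays (5.63 ± 0.23, adjusted p = 2.38e-10). Pdia3, a disulfide isomerase that works on glycoproteins, was 785, 623, 759 and 427 on the plasma arrays, against 16.5, 18.3, 27.7 and 24.9 on the memory arrays (4.88 ± 0.28, adjusted p = 5.54e-09). The memory values of both genes were close to background, whereas all plasma values were far above it. Hspa5 (BiP), the main ER chaperone, was bright in both subsets, with 12800, 11807, 13461 and 11665 on the plasma arrays, against 814, 1952, 2168 and 2743 on the memory arrays (2.82 ± 0.29, adjusted p = 2.26e-06). Its plasma arrays varied little, and memory array 1 was the lowest of its group. Manf and Sdf2l1, both made under ER stress, differed by 4.70 ± 0.22 and 4.77 ± 0.19. The lower member was Uggt1, the folding sensor, at -0.65 ± 0.16, and it turned to 1.22 with the most variable probe set.

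Of 29 genes for ER degradation and the stress response, 20 were higher and 3 lower (1 without plasma array 2), with a median of 2.12. Edem2 and Derl3, which take misfolded proteins out of the ER, differed by 5.03 ± 0.17 and 4.79 ± 0.24. Among the sensors, Ern1 (IRE1), which splices the Xbp1 transcript, was 1073, 1168, 1484 and 934 on the plasma arrays, against 99.2, 110.2, 116 and 75.7 on the memory arrays (3.54 ± 0.26, adjusted p = 6.99e-08). Atf6, the sensor cleaved to a transcription factor, was 1044, 671, 829.5 and 928 on the plasma arrays, against 86.5, 107, 86.6 and 64.2 on the memory arrays (3.34 ± 0.22, adjusted p = 3.11e-08). Atf4, the transcription factor of another arm of the response, was not called, with 1616, 979, 1152 and 1770.2 on the plasma arrays, against 1216, 691, 768 and 1633 on the memory arrays (0.40 ± 0.31, adjusted p = 0.374), but was called with its most variable probe set (0.56) and with the replicate block (0.40). Ddit3 (CHOP), a cell death factor downstream of Atf4, was called lower, with 108, 66.2, 46.2 and 114 on the plasma arrays, against 159, 162, 126 and 106 on the memory arrays (-0.80 ± 0.26, adjusted p = 0.0301), although the arrays overlapped and the call was lost in 9 of the alternatives. Crebrf, which restrains CREB3 factors, was the lowest member at -2.38 ± 0.23.

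Genes of transport from the ER to the Golgi were also mostly higher. Of 49 such genes, 39 were called higher and 1 lower, with a median of 1.70. Sec24d, a cargo adaptor of the COPII coat, was 2708, 1649.8, 2351 and 2555 on the plasma arrays, against 46.6, 59.1, 77.0 and 64.9 on the memory arrays (5.22 ± 0.25, adjusted p = 9.18e-10). The lower member was its relative Sec24b, with 137, 142, 140.4 and 132 on the plasma arrays, against 196, 328, 328 and 249 on the memory arrays (-0.97 ± 0.23, adjusted p = 0.00477). The SNARE protein Sec22b, the cargo receptor Lman1 and Ergic1 differed by 3.37, 3.20 and 3.12.

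Promoters were searched for motifs already known from ER genes, so their share in these lists is a description and not independent support. The ER stress response element, at which ATF6 and NF-Y bind, was searched as CCAAT, then 9 bases of any kind, then CCACG, on both strands of windows from 250 bases before to 50 after each start (RefSeq, GRCm38.p6). It was found in 37 of 27025 genes with a promoter in the table (0.137%). Of 34 folding genes 29 had a promoter, and 8 of them held the element (27.6%). It was in 2 of 25 promoters of the degradation and stress list and in 1 of 25 of the glycosylation list, but in 0 of 42 of the vesicle transport list. Of the 8 folding genes, 7 were called higher in plasma, among them Creld2 (4.25 ± 0.12), Pdia6 (4.00 ± 0.36), Dnajc3 (3.55 ± 0.22) and Hsp90b1 (2.71 ± 0.39). The other one, Ero1b, was not called (-0.07 ± 0.17), although its most variable probe set gave 2.96. Of all 34 folding genes 30 (88.2%) were called higher, so 7 of 8 with the element is close to the share of the whole list. These stretches are shown because they let the element, in capitals, be compared between Ero1b and 6 genes that were higher in plasma, of which Derl3 belongs to the degradation and stress list.
Creld2: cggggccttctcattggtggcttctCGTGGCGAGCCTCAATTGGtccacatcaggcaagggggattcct
Derl3: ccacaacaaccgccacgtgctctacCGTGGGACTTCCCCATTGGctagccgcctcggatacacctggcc
Pdia6: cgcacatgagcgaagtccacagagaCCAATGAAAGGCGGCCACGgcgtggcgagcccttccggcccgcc
Dnajc3: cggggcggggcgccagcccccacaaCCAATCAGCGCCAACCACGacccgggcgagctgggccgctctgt
Hspa5: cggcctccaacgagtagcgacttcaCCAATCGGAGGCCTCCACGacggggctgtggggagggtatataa
Hsp90b1: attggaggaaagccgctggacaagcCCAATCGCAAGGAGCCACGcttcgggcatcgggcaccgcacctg
Ero1b: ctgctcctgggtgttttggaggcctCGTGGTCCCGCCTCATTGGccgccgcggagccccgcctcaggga
The stretches lie at their gene starts in GRCm38.p6, Creld2 at chr15:88819495-88819563 (plus strand), Derl3 at chr10:75893217-75893285 (plus strand), Pdia6 at chr12:17266466-17266534 (plus strand), Dnajc3 at chr14:118937802-118937870 (plus strand), Hspa5 at chr2:34772000-34772068 (plus strand), Hsp90b1 at chr10:86705613-86705681 (minus strand) and Ero1b at chr13:12565657-12565725 (plus strand). Each is written 5' to 3' on the strand of its gene, so the element reads as its reverse complement in Creld2, Derl3 and Ero1b. A shorter motif bound by XBP1, TGACGTGG, was in 7 of 42 vesicle transport promoters (16.7%) against 193 of 27025 (0.714%). The 7 genes included Sec24d, and 6 of the 7 were called higher, beside 39 of all 49 genes of that list (79.6%). A match describes these letters and is not evidence of binding.

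**Figure D3:**
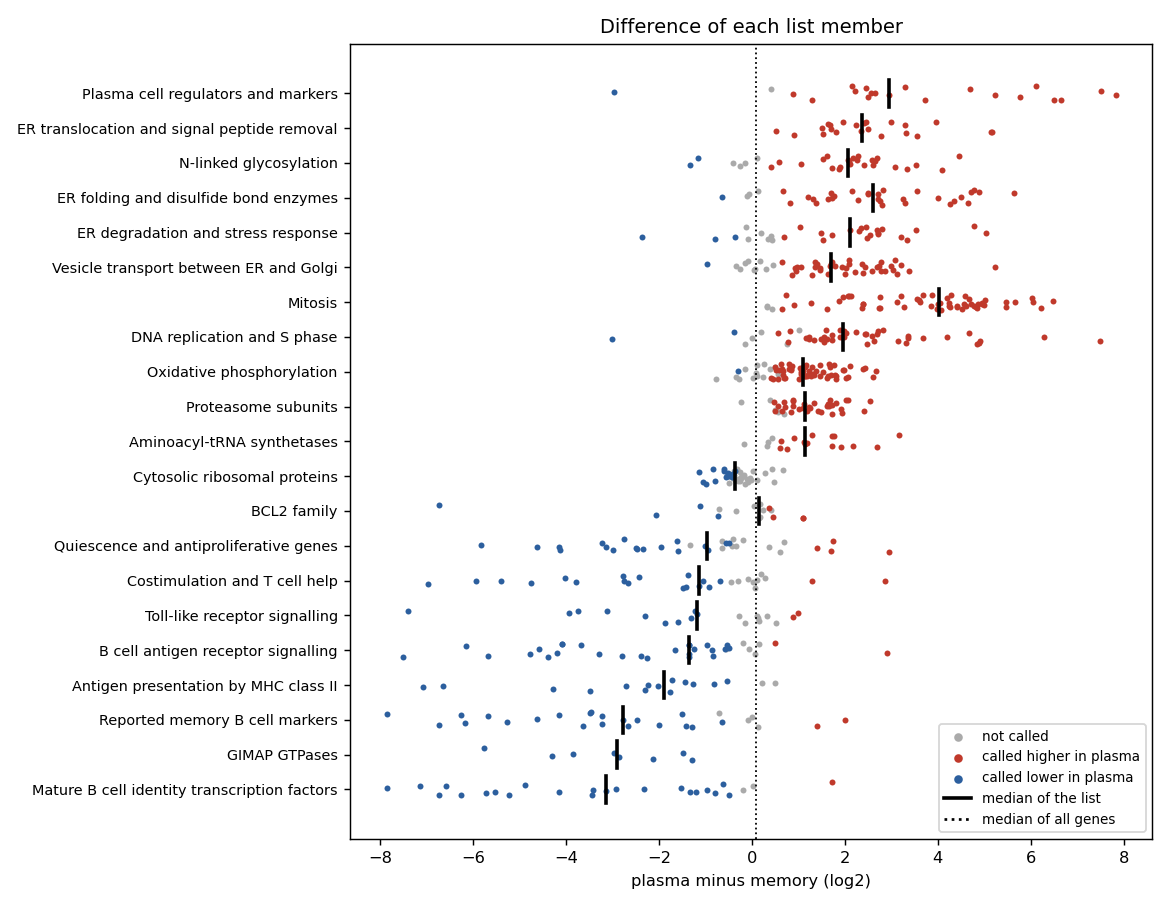
Each point is a member of a gene list, placed by its plasma minus memory difference (log2) and coloured by call; thick bars give each list's median and the dotted line the median of all genes, 0.08. Lists of ER, transport and mitosis genes lie to the right, with medians of 1.70 to 4.03, and B cell lists to the left, with medians down to -3.13.

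Most oxidative phosphorylation genes were higher in plasma. Of 71 oxidative phosphorylation genes, 57 were called higher and 1 lower, with a median of 1.09. This rise was not particular to plasma cells, since the germinal center mean also lay nearer to plasma than to memory for 52 of the 71. The naive mean did so for 18. Ndufc1, a subunit of complex I, was 1685, 1842, 1820.5 and 1588 on the plasma arrays, against 321, 279, 236 and 265 on the memory arrays (2.66 ± 0.24, adjusted p = 7.94e-07). Complex III (Uqcrq, 2.61 ± 0.24) and the ATP synthase (Atp5b, 2.39 ± 0.26) were higher as well. The lower member, Cox6a1, at -0.31 ± 0.10, turned to 1.37 with the most variable probe set and lost its call when any 1 of 6 arrays was left out. Of 18 glycolysis and glucose uptake genes 8 were higher and 5 lower, with a median of 0.45. Pkm, the last enzyme of glycolysis, was higher at 2.78 ± 0.27, while the glucose transporter Slc2a1 was 262, 254, 254 and 281 on the plasma arrays, against 1516, 923, 898 and 1079.7 on the memory arrays (-2.04 ± 0.23, adjusted p = 5.88e-06). The second transporter, Slc2a3, was 122, 145, 172 and 143 on the plasma arrays, against 794, 854, 1039.9 and 855 on the memory arrays (-2.61 ± 0.27, adjusted p = 2.86e-06). For both transporters every plasma array lay below every memory array. Of 18 citric acid cycle genes 8 were higher and 3 lower (1 without memory array 4 or plasma array 3), with a median of 0.54, led by Idh2 (2.73 ± 0.20).

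Of 23 amino acid transport and synthesis genes, 16 were called higher and 2 lower (1 when any 1 of 6 arrays was left out), with a median of 1.53 (1.48 with bounds). Asns, which makes asparagine, was 434, 442, 476 and 455 on the plasma arrays, against 39.4, 50.2, 49.2 and 36.0 on the memory arrays (3.38 ± 0.30, adjusted p = 6.52e-07). The large neutral amino acid transporter Slc7a5 was 104, 156, 176 and 111 on the plasma arrays, against 22.8, 24.7, 25.4 and 23.8 on the memory arrays (2.46 ± 0.15, adjusted p = 1.76e-08). Of 19 aminoacyl-tRNA synthetases 15 were higher and 0 lower (median 1.13), led by Yars (3.16 ± 0.20). Of 38 proteasome genes, 32 were higher and 0 lower (median 1.14), led by the core subunits Psmb7 (2.54 ± 0.25) and Psmb5 (2.41 ± 0.30). Of 43 cytosolic ribosomal protein genes 0 were called higher and 16 lower, with a median of -0.36. That count was 7 with arrays centred on bright genes and 9 without plasma array 2. Of 48 ribosome biogenesis genes 10 were higher and 10 lower, 20.8% each way with a median of 0.09, close to the 17.2% and 16% over all genes.

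Lipid synthesis genes were higher or not called, with few exceptions. Of 31 sterol and fatty acid genes 18 were higher and 2 lower, with a median of 0.76. The desaturase Fads1 differed by 2.94 ± 0.31, and Ebp, of cholesterol synthesis, by 2.88 ± 0.17. Scd1, the enzyme that makes monounsaturated fatty acids, had the opposite direction, with 77.8, 63.5, 85.8 and 65.0 on the plasma arrays, against 3521, 4238, 5149.7 and 4313 on the memory arrays (-5.88 ± 0.16, adjusted p = 6.81e-12). Its plasma arrays lay far below all memory arrays. Of 35 autophagy and lysosome genes 15 were higher and 8 lower (median 0.18). Cathepsin B (Ctsb) was higher at 2.43 ± 0.15, while Ctsh and Ctsc, which are also lysosomal proteases, were lower at -1.93 ± 0.19 and -1.38 ± 0.17.

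Transcripts of dividing cells were abundant on the plasma arrays. Of 60 mitosis genes, 57 were called higher in plasma and 0 lower, with a median of 4.03 (3.90 with bounds for genes below background in memory). Mki67, a marker of dividing cells, was 5748, 5569, 6522 and 5467 on the plasma arrays, against 214, 282, 197 and 230.2 on the memory arrays (4.67 ± 0.32, adjusted p = 3.47e-08). Ccnb2, a cyclin of mitosis, was 905, 928, 951 and 1059.8 on the plasma arrays, against 9.59, 15.8, 8.71 and 10.1 on the memory arrays (6.48 ± 0.25, adjusted p = 1.32e-10). Cdc20, which starts anaphase, was 4684, 4290, 4846 and 4613 on the plasma arrays, against 377, 235, 171 and 233 on the memory arrays (4.24 ± 0.23, adjusted p = 3.03e-09). No mitosis gene that was called overlapped between the subsets, and of all called genes 91.4% did not overlap either. The germinal center mean lay nearer to plasma than to memory for 59 of the 60 genes, and the naive mean for 3. For Mki67 the mean was 5813 in plasma and 6850 in germinal center cells. The titles name the cells as plasma cells, and the share of dividing plasmablasts among them was not tested.

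Of 48 replication genes, 41 were higher and 2 lower, with a median of 1.96 (1.92 with bounds). Rrm2, the nucleotide reductase subunit that limits replication, was 5103, 5031, 5837 and 4437 on the plasma arrays, against 15.8, 42.8, 19.5 and 48.1 on the memory arrays (7.49 ± 0.39, adjusted p = 2.74e-09). The licensing factor Cdc6 was 754, 926, 865 and 689.8 on the plasma arrays, against 9.09, 10.3, 10.2 and 11.8 on the memory arrays (6.28 ± 0.15, adjusted p = 2.35e-12). Pold1, the catalytic subunit of polymerase delta, went against the list, with 194, 381, 283 and 363 on the plasma arrays, against 3339.5, 2278, 2145 and 1926 on the memory arrays (-3.00 ± 0.23, adjusted p = 1.1e-07). All plasma arrays lay below all memory arrays for Pold1, while the other lower gene lost its call without memory array 1 or plasma array 1. Of 30 genes of hypermutation and DNA repair, 18 were higher and 4 lower, with a median of 1.38. Rad51ap1 and Chek1, of recombination and the checkpoint, differed by 4.97 ± 0.32 and 4.87 ± 0.17, and Trp53bp1 and Prkdc, of end joining, by -1.44 ± 0.18 and -1.41 ± 0.21.

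The cell cycle homology region, searched as TTTGAA, is a short motif of mitotic promoters. It was in 34 of 50 mitosis promoters in the table (68%), in 6 of 40 replication promoters (15%) and in 5466 of all 27025 (20.2%). The stretches around it, in capitals, are shown for Ccnb2, Cdc20 and Cdk1, which are among the mitosis genes described or called here (Cdk1 at 4.95 ± 0.32).
Ccnb2: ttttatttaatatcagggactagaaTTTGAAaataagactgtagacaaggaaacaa
Cdc20: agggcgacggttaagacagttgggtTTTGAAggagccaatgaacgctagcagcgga
Cdk1: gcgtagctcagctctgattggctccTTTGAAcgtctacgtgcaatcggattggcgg
The stretches lie at their gene starts in GRCm38.p6, Ccnb2 at chr9:70421691-70421746 (minus strand), Cdc20 at chr4:118437331-118437386 (minus strand) and Cdk1 at chr10:69352953-69353008 (minus strand). With 6 letters the motif is common, and a match is only a description.

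The transcription factors that hold the B cell state were lower in plasma. Of 25 such genes, 22 were called lower and 1 higher, with a median of -3.13. Hhex, which is needed for memory B cells, was 10.3, 11.1, 10.5 and 8.77 on the plasma arrays, against 1426, 2409, 3354 and 2631 on the memory arrays, at least 171-fold lower in plasma (adjusted p = 5.84e-10). Bach2, which opposes Prdm1, was 8.75, 6.66, 9.00 and 6.16 on the plasma arrays, against 398, 357, 839 and 932 on the memory arrays, at least 42.0-fold lower (adjusted p = 2.15e-09). Both genes were above background on no plasma array. Bcl6 is a repressor on which the germinal center program depends. It was 8.69, 11.9, 9.03 and 12.7 on the plasma arrays, against 274, 413, 356 and 583 on the memory arrays, at least 28.5-fold lower. Ebf1, which sets B cell identity with Pax5, was 21.7, 17.5, 22.6 and 22.02 on the plasma arrays, against 2608, 2004, 1725 and 2769 on the memory arrays (-6.74 ± 0.28, adjusted p = 2.46e-10). Pax5 itself was dim on all arrays, with 18.6, 14.4, 16.1 and 18.5 on the plasma arrays, against 34.2, 58.2, 41.5 and 39.7 on the memory arrays (-1.34 ± 0.21, adjusted p = 0.000144). Its difference was smaller than that of Ebf1, and the cause was not tested. Spib, an ETS factor, was 16.8, 9.54, 12.6 and 11.5 on the plasma arrays, against 2131, 1830.4, 1655 and 1424 on the memory arrays (-7.14 ± 0.26, adjusted p = 8.26e-11). Irf8, Bcl11a and Ets1 differed by -5.72 ± 0.22, -5.54 ± 0.22 and -4.89 ± 0.23. The exception was Mef2b, at 1.72 ± 0.34, which was brighter still in germinal center cells (mean 263). Myc, a target of Prdm1 repression, was lower, with 69.5, 87.6, 58.4 and 58.0 on the plasma arrays, against 212, 303, 209 and 416 on the memory arrays (-2.02 ± 0.28, adjusted p = 4.95e-05).

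Genes of antigen receptor signalling were mostly lower in plasma. Of 33 genes of the B cell receptor pathway 26 were called lower and 2 higher, with a median of -1.36. Cd22, a receptor that restrains signalling, was 32.3, 26.5, 27.8 and 36.4 on the plasma arrays, against 6311, 5689, 6049 and 4406 on the memory arrays (-7.51 ± 0.21, adjusted p = 7.05e-12). The complement receptor Cr2 was 49.9, 57.7, 41.6 and 46.8 on the plasma arrays, against 3194, 3981, 3076 and 3670.3 on the memory arrays (-6.15 ± 0.14, adjusted p = 2.35e-12). The kinase Blk was 32.5, 30.5, 33.0 and 27.4 on the plasma arrays, against 669, 912, 1014 and 790.2 on the memory arrays (-4.77 ± 0.17, adjusted p = 5.25e-11). None of the 3 came near overlap. The adaptor Blnk was called higher by only 0.49 ± 0.16, and its call was lost without memory array 1 or 4 or plasma array 3 or 4. The other, Pik3cd, a kinase subunit, was uneven, with 248, 5673, 2668 and 595 on the plasma arrays, against 193, 240.5, 206 and 74.6 on the memory arrays (2.90 ± 0.74, adjusted p = 0.00694). Plasma arrays 2 and 3 carried far more signal than plasma arrays 1 and 4, and the difference was 0.53 over the mean of all its probe sets, 3.67 without plasma array 1 and 2.16 without plasma array 2. The receptor for B cell activating factor, Tnfrsf13c, was lower at -1.48 ± 0.11.

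Antigen presentation was lower in plasma. Of 16 genes of the class II path, 14 were called lower and 0 higher, with a median of -1.90. Ciita, the activator of class II genes, was 12.2, 9.40, 9.95 and 10.2 on the plasma arrays, against 95.2, 52.7, 69.3 and 60.5 on the memory arrays, at least 4.93-fold lower (adjusted p = 1.46e-06). The class II alpha chain H2-Aa was 4114, 2914, 2766 and 4588 on the plasma arrays, against 19380, 17240, 15110 and 17500 on the memory arrays (-2.29 ± 0.16, adjusted p = 5.56e-08). H2-Ob, which regulates peptide loading, was 53.4, 39.2, 66.5 and 37.7 on the plasma arrays, against 5834, 3862, 4399 and 5295 on the memory arrays (-6.64 ± 0.21, adjusted p = 2.1e-11). Structural chains remained well above background in plasma, whereas H2-Ob was dim there. The ubiquitin ligase Marchf1, which turns over class II protein, was above background on no plasma array and at least 95.05-fold lower. Cd74, the invariant chain, differed by -1.45 ± 0.30.

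Of 27 costimulation genes 17 were lower and 2 higher, with a median of -1.15. Cd40, the receptor for T cell help, was 8.39, 35.1, 19.2 and 18.2 on the plasma arrays, against 2326, 2843, 1894 and 1994 on the memory arrays (-6.96 ± 0.32, adjusted p = 6.17e-10). Cd86, a ligand of Cd28, was 19.4, 16.1, 12.3 and 13.2 on the plasma arrays, against 691, 664, 701 and 516 on the memory arrays (-5.41 ± 0.18, adjusted p = 2.89e-11), the reverse of Cd28 itself. Il6st, a chain of the interleukin 6 receptor, was one of the higher genes, at 2.87 ± 0.29. Of 19 Toll-like receptor genes 10 were lower and 2 higher, with a median of -1.18. Tlr1 was 7.99, 7.07, 7.24 and 8.05 on the plasma arrays, against 2400.2, 1066, 958 and 1082 on the memory arrays, at least 92.9-fold lower (adjusted p = 1.03e-10), and memory array 1 was far above the other memory arrays.

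Genes reported as memory markers were mostly lower in plasma, with 21 of 27 called lower and 2 higher and a median of -2.77 (-2.67 with bounds). Cd80, a costimulatory ligand of memory subsets, was 10.2, 8.95, 9.87 and 10.4 on the plasma arrays, against 67.6, 61.5, 64.5 and 75.1 on the memory arrays, at least 4.88-fold lower. Nt5e (CD73), an ectoenzyme, was 7.31, 8.80, 7.07 and 7.61 on the plasma arrays, against 156, 61.8, 98.6 and 88.0 on the memory arrays, at least 6.96-fold lower. The naive means of Cd80 and Nt5e, 8.86 and 6.81, were at the plasma level, but the naive mean was nearer to plasma for only 15 of the 27 genes. For Hhex, also of this list, the naive mean of 3668 lay above the memory mean of 2347. The germinal center mean of Nt5e, 101, was close to its memory mean of 95.5. The 2 higher genes were the adhesion molecules Itgb1 (2.00 ± 0.37) and Cd44 (1.41 ± 0.23). All 8 GIMAP genes, GTPases of resting lymphocytes, were lower, with a median of -2.91 and Gimap8 at -5.76 ± 0.26.

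Position and adhesion genes were divided. Of 31 genes, 15 were lower and 9 higher, with a median of -0.40. Cxcr5, which leads B cells to follicles, was 10.8, 16.04, 14.1 and 26.0 on the plasma arrays, against 1298, 1813, 1567 and 1361 on the memory arrays (-6.56 ± 0.31, adjusted p = 8.81e-10). The chemokine receptor Ccr6 was 16.3, 18.4, 19.0 and 17.8 on the plasma arrays, against 842, 1957, 1338 and 1242 on the memory arrays (-6.17 ± 0.23, adjusted p = 8.77e-11). Cxcr4, which draws plasma cells to bone marrow, was higher, with 191, 248, 201 and 176 on the plasma arrays, against 68.1, 54.9, 86.5 and 76.8 on the memory arrays (1.52 ± 0.37, adjusted p = 0.00509). Selplg, the selectin ligand, was also higher, at 2.48 ± 0.29. The sphingosine phosphate receptors did not move as 1 group: S1pr3 was at least 181-fold lower, S1pr1 was lower at -2.60 ± 0.32, and S1pr2 was higher at 0.78 ± 0.21. S1pr3 was 9.20, 11.01, 10.4 and 11 on the plasma arrays, against 2017, 4347, 2006 and 2162 on the memory arrays, and memory array 2 was the highest.

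Of 16 BCL2 family genes 4 were called higher and 4 lower, 25% each way against 17.2% and 16% over all genes, with a median of 0.16 (0.10 with bounds). In 9 alternatives, including those without memory array 1, 3 or 4 or plasma array 4, only 2 were called higher. Bcl2, which blocks cell death, was 10.3, 16.2, 13.1 and 14.0 on the plasma arrays, against 594, 2410.3, 1418 and 1921 on the memory arrays (-6.73 ± 0.40, adjusted p = 8.43e-09). Every plasma array was at or near background, and memory array 1 was the lowest of its group. Mcl1, on which plasma cells depend, was 6323, 4443, 5254 and 6439 on the plasma arrays, against 10138, 8372, 9101 and 9145 on the memory arrays (-0.72 ± 0.14, adjusted p = 0.000741). It was bright in both subsets, and another of its probe sets gave 1.90. Bcl2l1 (Bcl-xL) and the death inducer Bcl2l11 (Bim) were higher at 1.11 ± 0.18 and 1.11 ± 0.22, and the death inducer Bmf was lower at -2.06 ± 0.33.

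Of 32 quiescence genes 18 were lower and 4 higher, with a median of -0.97. Btg1, an antiproliferative gene, was 104, 87.4, 154 and 72.2 on the plasma arrays, against 5680.2, 5574, 4807 and 6813 on the memory arrays (-5.82 ± 0.26, adjusted p = 5.36e-10). Its relative Btg2 ran the other way, with 801, 503, 856 and 686 on the plasma arrays, against 199, 146, 232 and 288 on the memory arrays (1.73 ± 0.21, adjusted p = 1.08e-05). The cell cycle inhibitor Cdkn2c, known to be needed in plasma cells, was 589, 675, 623 and 611 on the plasma arrays, against 62.6, 73.2, 99.8 and 94.5 on the memory arrays (2.94 ± 0.16, adjusted p = 3.22e-09). For Btg1 and Btg2 the subsets did not overlap in either direction. Klf2 and Klf3, factors of resting lymphocytes, differed by -4.16 ± 0.28 and -4.63 ± 0.24.

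Further groups had medians nearer to 0. Of 31 polycomb and chromatin genes 12 were lower and 4 higher, with a median of -0.48. Ezh2, the methyltransferase of dividing cells, was higher at 1.84 ± 0.19, and its relative Ezh1 was lower at -1.85 ± 0.24. Of 42 interferon response genes 16 were lower and 5 higher, with a median of -0.48, although the exonuclease Isg20 was 4265, 1752, 2014 and 3267 on the plasma arrays, against 207, 141, 117 and 174 on the memory arrays (4.08 ± 0.28, adjusted p = 4.05e-08). Of 36 immediate early genes 14 were lower and 4 higher, with a median of -0.55. Egr3, induced by receptor signals, was 6.71, 6.71, 8.25 and 6.83 on the plasma arrays, against 56.7, 172, 127 and 799 on the memory arrays, at least 12.9-fold lower (adjusted p = 3.27e-05). Rgs2, which dampens G protein signals, was 34.1, 36.4, 49.4 and 27.6 on the plasma arrays, against 698, 431, 579.8 and 3347 on the memory arrays (-4.60 ± 0.49, adjusted p = 4.09e-06). Memory array 4 had the highest value of both genes. Without it Egr3 was at least 7.81-fold lower in plasma, and the difference for Rgs2 was -3.95. Of 15 annexin and S100 genes 6 were lower and 4 higher (2 without memory array 3), with a median of -0.12. Of 19 genes of germinal center cells 8 were lower and 4 higher, with a median of -0.13.

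Without immunoglobulin genes, the 15 largest differences in each direction combined these groups with genes of other roles. Gpm6a, a membrane glycoprotein of neurons, was at least 84.6-fold higher in plasma, and Reln, a secreted protein of the brain, was 3336, 3512, 4743 and 3217 on the plasma arrays, against 20.8, 17.1, 43.5 and 80.9 on the memory arrays (6.77 ± 0.41, adjusted p = 1.15e-08). Pon3, a lactonase, was 1433, 801, 990.5 and 1593 on the plasma arrays, against 9.01, 13.3, 15.3 and 15.2 on the memory arrays (6.49 ± 0.25, adjusted p = 1.08e-10). The other genes were Chst1, Fndc3b, Rgcc, Cks1b and Ncapg2, at 6.22 to 6.47. Among the lowest, Srpk3, a kinase best known in muscle, was 27.6, 25.6, 20.3 and 45.9 on the plasma arrays, against 6708, 6074, 6466 and 5314 on the memory arrays (-7.75 ± 0.24, adjusted p = 2.07e-11). Cnn3, an actin-binding protein, was 15.03, 21.8, 25.8 and 16.1 on the plasma arrays, against 4047, 3666, 4102 and 3851 on the memory arrays (-7.67 ± 0.27, adjusted p = 4.94e-11). The others were Sorl1, Serpinb1a and Gpr137b, at -7.07 to -6.65. Gpr137b was brighter in memory cells than in naive cells (mean 477), whereas Cnn3 and Sorl1 were not.

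**Figure D4:**
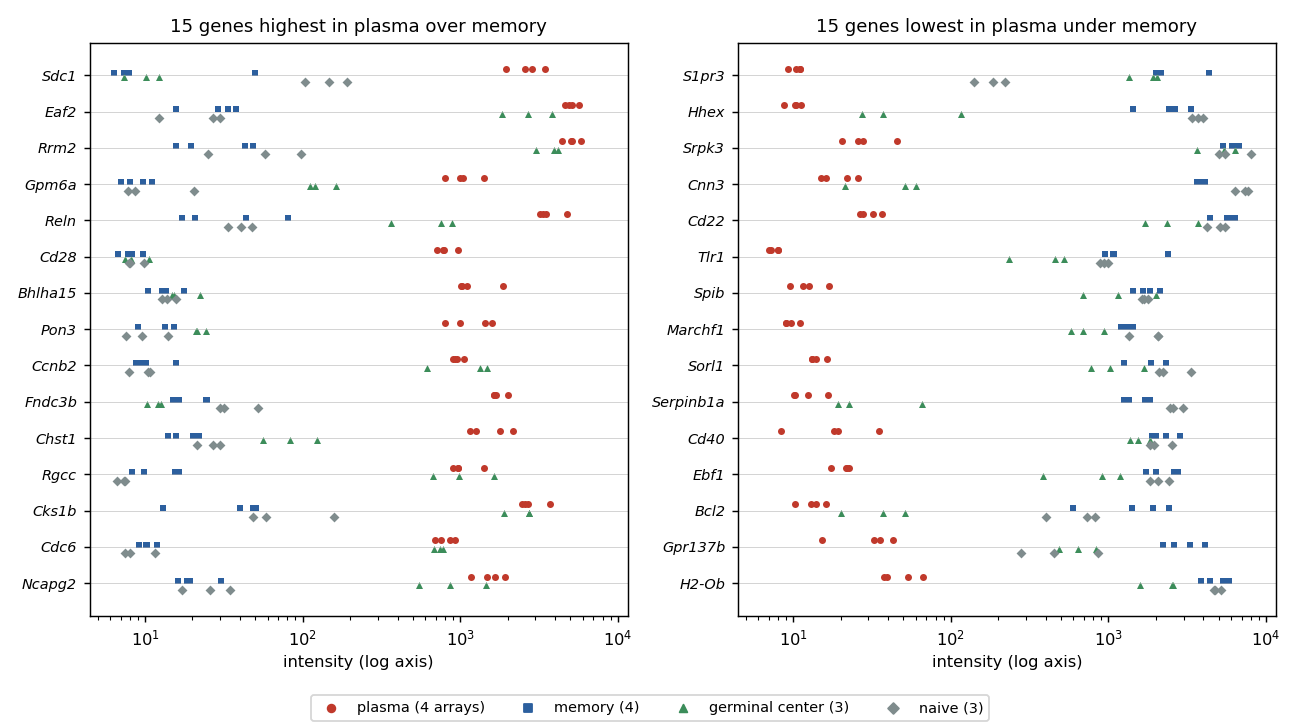
Intensity (log axis) of the 15 genes with the largest differences in each direction, on the plasma (4), memory (4), germinal center (3) and naive (3) arrays. Immunoglobulin genes are left out. The germinal center arrays lie near plasma for Ccnb2, Cdc6, Rgcc and Cks1b and near memory for Cd22, Srpk3 and Cd40, while Cd28 and Bhlha15 are high on the plasma arrays alone.

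Where the other subsets lay was described without a test. Of 1689 genes at least 2-fold higher in plasma, the naive mean was nearer to memory for 1460 and nearer to plasma for 229. Of 1907 genes at least 2-fold lower, it was nearer to memory for 1602 and nearer to plasma for 305. The germinal center mean divided more evenly, nearer to plasma for 696 of the higher and 924 of the lower genes. By list, it was nearer to plasma for 43 of 48 replication genes but for 0 of 22 translocation genes and 5 of 34 folding genes.

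Markers of other cells were examined in the same fit. Of 28 myeloid markers 6 (21.4%) were called higher in plasma and 1 (3.57%) lower, against 17.2% and 16% over all genes. Their summed intensity was 343 to 768 in plasma and 377 to 557 in memory. The macrophage receptor Csf1r was 145, 56.0, 30.8 and 107 on the plasma arrays, against 32.1, 32.2, 25.6 and 23.1 on the memory arrays (1.36 ± 0.35, adjusted p = 0.00753), highest on plasma arrays 1 and 4, and its groups overlapped. Itgam, which encodes CD11b of the excluded cells, was above background on no array. Of 24 T and NK cell markers 3 (12.5%) were higher and 1 (4.17%) lower, with sums of 402 to 471 in plasma and 606 to 729 in memory. The lower one was Cd2, which gave a large part of the memory sums. Its mean was 31.5 in plasma, 331 in memory and, higher still, 719 in naive B cells. Thy1 was higher, with 38.5, 24.9, 17.7 and 42.6 on the plasma arrays, against 10.1, 9.06, 8.62 and 11.9 on the memory arrays, and plasma arrays 1 and 4 were again the highest. Of 14 red cell markers 5 (35.7%) were higher (2 to 4 when any 1 array was left out) and 0 lower. Their sums were 435 to 691 in plasma and 266 to 460 in memory. Of 22 platelet, plasmacytoid dendritic and stromal markers 3 (13.6%) were higher and 1 (4.55%) lower, with sums of 486 to 582 in plasma and 394 to 476 in memory. The part of such cells in the differences above was not tested.

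Probe sets of a gene did not always give the same direction. Of 2350 genes with 2 or more called probe sets, 397 (16.9%) had calls in opposite directions, 93 of them at least 2-fold both ways. Laptm5, a lysosomal membrane protein of blood cells, was -3.24 by its brightest probe set, while another was called higher (2.28 ± 0.64, adjusted p = 0.0148). Such genes are read here by their brightest probe set only.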

How the data were processed

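RNA was measured on 14 Affymetrix arrays, of which 4 plasma and 4 memory arrays are compared here. The deposited values are 1 linear intensity per probe set and array, made by the authors with RMA, per the submitters' processing notes; version, chip definition and any pooling are not given in the sources used here. From these values log2 was taken with no further normalization. Gene symbols came from GEO's platform annotation. Of 45037 probe sets other than controls, 34945 had 1 symbol, 932 several and 9160 none, and each of 18193 genes is read by the probe set with the highest mean over the 14 arrays.

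Groups follow the array titles. One limma 3.58.1 fit (R 4.3.3) over all 14 arrays, 4 groups and no covariate gave plasma minus memory, with Benjamini-Hochberg adjustment over 18193 genes and a threshold of 0.05. Tables and figures were made with Python 3.11.15, pandas 2.3.3, numpy 2.4.6, scipy 1.17.1 and matplotlib 3.10.9. The same steps were tested on simulated data for 18193 genes, with normal noise and 100 genes changed at each size. There 71% of genes changed by a log2 of 1 and 94% of those changed by 2 were called, and 5.71% of calls were false. In the data a far larger share of genes, 33.2%, was called, so these rates need not hold for this comparison. Arrays give no read depth, and their number limits the precision.

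The gene lists and the members described were chosen with earlier results of these data known. Named genes are the 15 highest and 15 lowest without overlap, up to 4 called in each direction per list and those called against a list's main direction, the defining markers, a fixed set, genes above background in 1 subset only and genes with opposite probe sets. Bcl11a, Cdc20, Cdk1, Creb3l2, Creld2, Cxcr3, Dnajc3, Ero1b, Ets1, H2-Aa, Hsp90b1, Irf8, Itgam, Pdia6, Sec61a1, Slamf7, Srp9 and Tnfrsf13c fall outside that rule and were chosen after their values were seen. Plasma and memory arrays share replicate numbers, but deviations of same-numbered arrays correlated at 0.216, 0.119, 0.089 and -0.321, so the numbers were not taken as pairs. Alternatives changed the scaling, normalization, floor, filter, probe set, variance model, covariate, arrays and threshold.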

Additional observations from a re-analysis of the deposited data

Results flagged for a closer look

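Among 324 groups of 4 arrays of the genes named above, 15 held 1 array far from the other 3, where chance gives about 1 in 20 groups. On the plasma arrays, array 2 was the far one for Ighm (14600, below the others), Ebf1 (17.5, below), Tent5c (3950, below) and Prkdc (156, above). Plasma array 4 was far above the others for Bhlha15 (1870), plasma array 1 for S1pr1 (55) and plasma array 3 apart for Bcl11a (28.6). On the memory arrays, array 2 was far above for S1pr3 (4350) and Cxcr3 (673) and below for Tram2 (38.5). Memory array 1 was above for Tlr1 (2400) and below for Cks1b (13). Memory array 3 was above for Crebrf (565) and Fads1 (17.7), and memory array 4 was above for Sdc1 (49.9).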

How the results depend on the processing

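The 8 fits that each left out 1 array called 5384 to 5662 genes, against 6035 with all arrays. The other settings at the same threshold called 4962 (intensities below 16 set to 16) to 6655 (most variable probe set), and an adjusted p under 0.01 left 4460. Of 157 named genes, 145 kept their direction and their side of the threshold in every setting run for them. With each array centred on the median of all genes, 44.3% of calls were higher, against 51.9% uncentred. The BCL2 family had 2 genes called higher, in place of 4, with the actin ratio as covariate, with either centring, with the floor, at an adjusted p under 0.01, and in 4 of the fits without 1 array, where the count lay between 2 and 3. Ribosomal proteins called lower were 7 with arrays centred on bright genes and 7 at an adjusted p under 0.01, in place of 16, and 9 to 16 in the fits without 1 array. Another probe set turned 6 genes. The mean of probe sets gave 0.53 for Cox6a1, 0.95 for Ero1b, 0.15 for Hnrnpf, 0.17 for Stt3b and 0.21 for Uggt1. The most variable probe set gave 1.37 for Cox6a1, 2.96 for Ero1b, 0.74 for Hnrnpf, 1.90 for Mcl1, 1.501 for Stt3b and 1.22 for Uggt1. The cause was not tested. The replicate block in the fit of the 8 arrays called 6364 genes, 3225 of them higher. It ended the calls of Ddit3 and Cox6a1 and added that of Atf4 among the named genes. Dim genes are limited by signal over background: 4781 of 18193 genes were above it on none of the 8 arrays.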

Other observations

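Of 10092 probe sets with no gene symbol or several, 2329 were called when all 45037 probe sets were tested together, 660 of them higher in plasma and 1669 lower. These probe sets are unnamed here, and their split between higher and lower differs from that of the 34945 probe sets with 1 symbol, of which 5356 were higher and 5194 lower. That difference was not tested.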
